A study of Homo sapiens with 4 samples.

Results

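Transcripts of the cytosolic translation factors were examined in Hep-G2 cells, which derive from a human hepatoma, carrying an shRNA against FTO, the RNA demethylase, or a scramble shRNA. The set held 50 named genes, chosen by symbol, among 62893 listed Ensembl genes: 31 initiation factors, their partners and the eEF2 kinase, and 19 genes that encode elongation factors or subunits of eIF3. Each group had 2 deposited count tables of total RNA at passage 21, called run 1 and run 2 here. The shFTO cells carried the single shRNA TRCN0000246247 and the scramble cells SHC002, so each group rests on 1 shRNA sequence.

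Between runs of one group no difference beyond sampling noise could be detected. A chi-square test over genes gave 1.01 per degree of freedom for shFTO (p = 0.142) and 1.02 for scramble (p = 0.0648), against 118 to 120 between runs of different groups. Each group was therefore counted as 1 sample, no p-value is given for any gene, and ratios are of pooled reads with exact 95% counting intervals, which leave out the spread between cultures. Totals were 20047409 to 20706611 gene-assigned reads per run, and levels are CPM, reads scaled to a common library size with TMM factors. FTO itself had 5.42 and 5.84 CPM in the shFTO runs, against 31.4 and 28.5 CPM in the scramble runs. All 8 hepatocyte markers were read in both groups, with a summed level of 15420 and 15340 CPM in the shFTO runs and 35430 and 35400 CPM in the scramble runs. All 8 were lower in shFTO cells but to unlike degrees, from 1.32-fold for HNF4A to 71.3-fold for AFP. Of 4 fibroblast and 4 endothelial markers 2 each were at 0 in every run, and the others had at most 5 reads in any run. Of 4 leukocyte markers only LYZ was above 1 read, at 232.2 and 231.8 CPM in the shFTO runs and 3001 and 3008 CPM in the scramble runs. The part of these markers in the results was not tested, and in bulk RNA fewer cells of a type and less RNA per cell cannot be told apart.

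Translation starts when eIF2, loaded with GTP and the initiator tRNA, joins the small ribosomal subunit together with eIF1, eIF1A, eIF3 and eIF5. The eIF4 proteins bind the mRNA cap and unwind the leader, PABPC1 ties in the poly(A) tail, and eIF5B joins the large subunit. The eEF1 complex then delivers each aminoacyl-tRNA and eEF2 moves the ribosome on. Many elongation factor and eIF3 mRNAs, like those of ribosomal proteins, begin with a 5′ terminal oligopyrimidine (TOP) tract, through which mTORC1 and LARP1 are known to control their translation and stability.

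Elongation factor transcripts differed in opposite directions. EEF1A1 and EEF2, the main GTPases of elongation, were 1.70-fold and 1.55-fold lower in shFTO cells, whereas EEF1A2, the EEF1A isoform known from muscle and neurons, was 5.79-fold higher. Most initiation factors moved little, as did most genes. A log2 ratio of 0.32 in size, which is a ratio of 0.8 for a lower transcript, served as a mark for the larger differences. Of 49 members with enough reads, 33 (67.3%) lay inside the mark on both sides, 10 (20.4%) lay past it on the lower side and 6 (12.2%) on the higher side in shFTO cells. Among all 13767 genes with enough reads, 53.2% lay inside the mark. Past it, 24.0% were lower and 22.8% higher, so the members passed it no more often than genes in general. The lower members were EEF1A1, EEF2, EEF1D, EIF3G, EIF3K, EIF3E, EIF3H, EIF4A2, EIF4G3 and PABPC1. The higher ones were EEF1A2, EIF5, EIF5B, EIF2B1, EIF4A1 and EIF4E3, of which EIF4A1 and EIF4E3 had at most 74 reads in any run. Only EEF1A2 differed by 2-fold or more, against a background of 6.19% of genes lower and 5.18% higher. The members' median log2 ratio was -0.15, beside 0.01 over all genes with enough reads. With plain library sizes in place of TMM scaling every log2 ratio is 0.17 larger, and EIF2S2, EIF2S3, EIF2B2, EIF2B3, EIF3L, EIF4E, EIF4G2, EIF4EBP1 and EIF6 no longer lie below 0. Then 3 members were lower and 9 higher past the mark, so the balance of the counts depends on the scaling. The shares of all genes past the mark with plain library sizes are not given here. The all-gene median rises alike, to 0.177, and the difference of the members' median from it is -0.159 under both scalings.

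**Figure D1:**
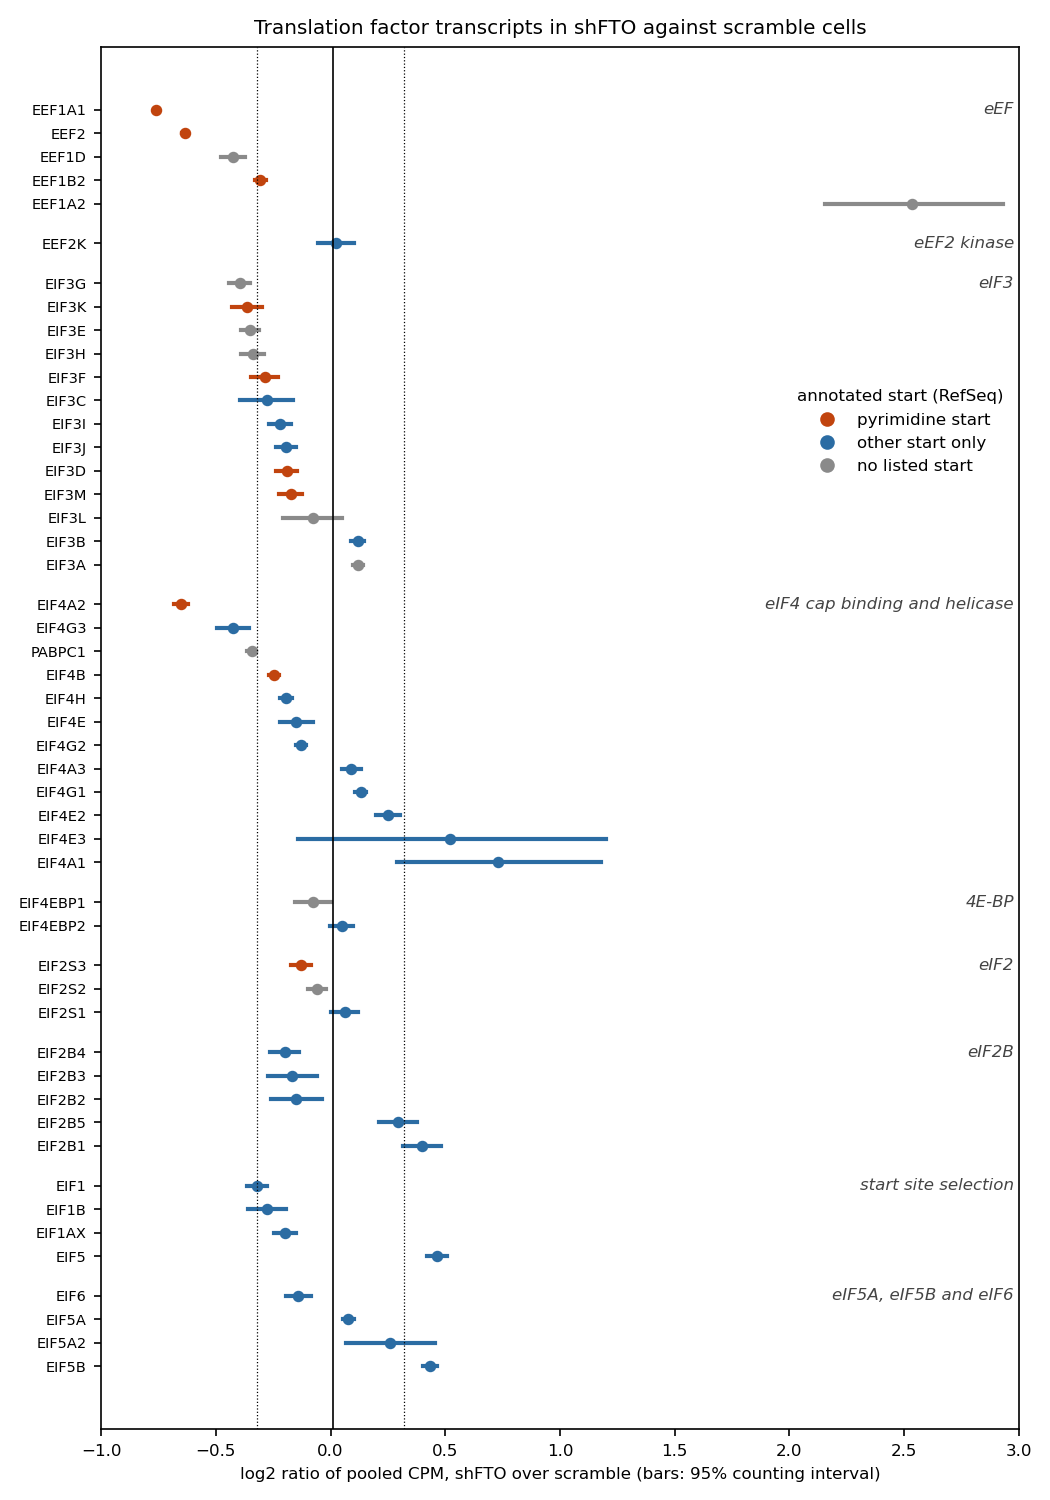
Log2 ratio of pooled CPM, shFTO over scramble, for the 49 members with enough reads, grouped by role (points, with 95% counting intervals as bars). The solid line is the median of all genes with enough reads and the dotted lines lie at 0.32 on either side of 0, and colours give the class of the annotated transcript start. EEF1A1, EIF4A2 and EEF2 lie farthest to the left and EEF1A2 far to the right of the other members.

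The first bases of the annotated transcripts are given because every member with a pyrimidine tract there lay below the all-gene median. Starts came from RefSeq (GRCh38.p14), and the listing used held 40 of the 50 genes. The 10 genes it lacked could not be classed. Among them were EEF1D, EIF3E, EIF3H and PABPC1, which are textbook TOP genes. A pyrimidine start was defined as a C at the first base followed by at least 4 further C or T bases, on the transcript's own strand, in any listed start of the gene. Of the 40 genes 10 had one, against 7.32% of the 10255 genes with enough reads and a listed start, and 4.07% of all 35116 listed starts. Each line shows 10 bases before and 20 bases from the annotated start, with the uninterrupted pyrimidine tract in capitals.
EEF1A1 (chr6:73521013-73521042, minus strand): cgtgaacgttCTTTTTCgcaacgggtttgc
EEF2 (chr19:3985444-3985473, minus strand): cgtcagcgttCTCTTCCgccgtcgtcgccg
EEF1B2 (chr2:206159885-206159914, plus strand): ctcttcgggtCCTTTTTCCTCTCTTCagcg
EIF4A2 (chr3:186783567-186783596, plus strand): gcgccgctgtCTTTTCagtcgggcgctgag
EIF4B (chr12:53006446-53006475, plus strand): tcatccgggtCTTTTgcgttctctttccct
EIF3K (chr19:38619178-38619207, plus strand): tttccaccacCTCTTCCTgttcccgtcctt
EIF3F (chr11:7987327-7987356, plus strand): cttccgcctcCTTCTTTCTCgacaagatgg
EIF3D (chr22:36529147-36529176, minus strand): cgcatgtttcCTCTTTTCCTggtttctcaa
EIF3M (chr11:32583821-32583850, plus strand): gcccagttccCTTTTCCggtcggcgtggtc
EIF2S3 (chrX:24054946-24054975, plus strand): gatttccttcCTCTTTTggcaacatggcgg

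EEF1B2 has a second listed start upstream, with no tract, which is shown first here. Members with no such tract at any listed start lay on both sides of the median. Of these EIF5B, EIF2B1 and EIF5 were higher and EIF4G3 and EIF1 lower in shFTO cells, and EIF5 and EIF4G3 are shown with both of their listed starts.
EEF1B2, upstream start (chr2:206159599-206159628, plus strand): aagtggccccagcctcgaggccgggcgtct
EIF5B (chr2:99337379-99337408, plus strand): ctgagaactcacaccatatgtgtcctgttc
EIF2B1 (chr12:123633667-123633696, minus strand): gtacggaagtgcgccggaagtggggtgcgg
EIF5, upstream start (chr14:103334227-103334256, plus strand): ggcgttgttcagtcagagcgagaacattcc
EIF5, downstream start (chr14:103334878-103334907, plus strand): ggcacccctcggccgtgtgtcgcttcccgg
EIF4G3, upstream start (chr1:21176878-21176907, minus strand): ttttccgagcagccgtcctgccggactgct
EIF4G3, downstream start (chr1:21111364-21111393, minus strand): ttctttccagcaatcccacagagtattgat
EIF1 (chr17:41688875-41688904, plus strand): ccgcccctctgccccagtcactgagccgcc

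All 10 members with a pyrimidine start lay below the all-gene median, with log2 ratios from -0.76 for EEF1A1 to -0.13 for EIF2S3, and a median of -0.30. Of the 29 members with other starts and enough reads, 14 lay below it and 15 above, from -0.43 for EIF4G3 to 0.73 for EIF4A1, with a median of 0.02. The 10 members with no listed start had a median of -0.21, and 8 of them lay below. The same order held over all genes with enough reads: 63.5% of the 751 genes with a pyrimidine start lay below the all-gene median, against 49.3% of the 9504 with other starts. Without the members and the ribosomal protein genes, 60.9% of 695 such genes did, with a median log2 ratio of -0.11. With length, GC and expression trends removed, their median was -0.05, beside 0.045 for genes with other starts and 0.036 over all genes. The trends were fitted with the genes of pyrimidine starts included, so removal can also take away part of a difference between classes. Cytosolic ribosomal protein transcripts, of which 46 of 63 with a listed start carried a pyrimidine start, had a median of -0.38 over 77 genes, and of -0.12 with those trends removed. The difference between the medians of both start classes, -0.32 on the log2 scale, does not change with library scaling. It was -0.12 once trends of the log2 ratio on transcript length, GC content and expression level were removed, when all 10 members with a pyrimidine start and 15 of the 29 others lay below the all-gene median, and -0.17 over members with at least 10 CPM in both groups. No test was made of it, and the absence of these letters says nothing about other ways in which a transcript is controlled.

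**Figure D2:**
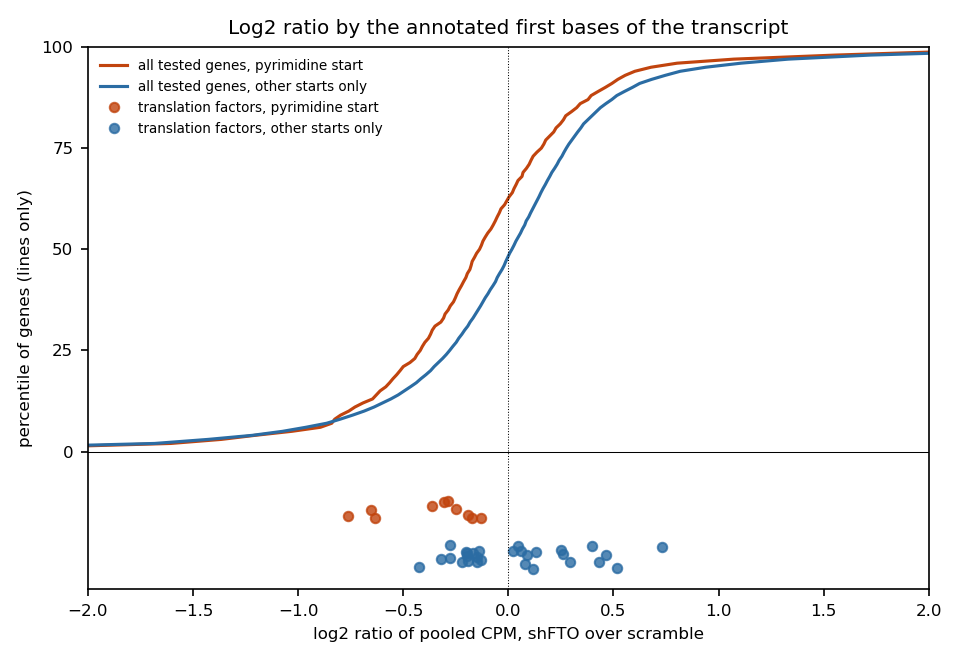
Percentiles of the log2 ratio of pooled CPM, shFTO over scramble, for all genes with enough reads by class of annotated start (lines), with the translation factors of each class as points below the axis, spread vertically only to keep them apart. The 10 translation factors with a pyrimidine start all lie left of 0 (EIF2S3 would not with plain library sizes), whereas the 29 with other starts lie on both sides.

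Among the elongation factors, EEF1A1 (ENSG00000156508), which carries aminoacyl-tRNA to the ribosome, had 4050 and 4098 CPM in the shFTO runs and 6918 and 6893 CPM in the scramble runs. Both shFTO runs lay far below both scramble runs, and the pooled level was 1.70-fold lower (interval 1.69 to 1.71). The transcript took 0.429% and 0.434% of all reads in the shFTO runs, against 0.652% and 0.65% in the scramble runs. EEF1A1 has 48 listed processed copies, whose reads came to 0.704% of its own and were likewise fewer in shFTO (590 and 589) than in scramble (948 and 973). EEF2 (ENSG00000167658), the translocase, had 1943 and 1947 CPM in shFTO and 3016 and 3025 CPM in scramble, and was 1.55-fold lower (1.54 to 1.57). EEF1A1 and EEF2 were the most strongly read members, and their counting intervals were the narrowest.

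The exchange factor subunits of eEF1 were lower to a lesser degree. EEF1D (ENSG00000104529) had 125.3 and 126.7 CPM in shFTO cells and 165.6 and 173.1 CPM in scramble cells, 1.34-fold lower (1.30 to 1.39). EEF1B2 (ENSG00000114942) had 572.4 and 580.6 CPM in shFTO cells and 715.6 and 710.4 CPM in scramble cells, 1.24-fold lower (1.22 to 1.26) and just short of the mark. The groups did not overlap for either gene, as for 81.6% of all genes. EEF1G (ENSG00000254772), the third subunit, had 1 and 0 reads in shFTO and 0 and 2 in scramble, at or under the floor of 3 reads, so no ratio is given. In GENCODE 29, 99.9% of its exon bases also belong to the gene ENSG00000255508 on the same strand, which had 19 and 22 reads in shFTO and 38 and 36 in scramble, and reads shared by both genes cannot be assigned to one.

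EEF1A2 (ENSG00000101210) ran the other way, at 10.1 and 9.62 CPM in the shFTO runs (216 and 211 reads) against 1.54 and 1.87 CPM in the scramble runs (29 and 36 reads). Its pooled level was 5.79-fold higher in shFTO (4.45 to 7.64), the largest ratio of any member with enough reads. Set against EEF1A1, which removes the effect of library scaling, EEF1A2 was 9.82-fold higher (7.55 to 12.95). Per kilobase of transcript EEF1A2 still made up only 0.425% and 0.40% of the pair in the shFTO runs and 0.038% and 0.0463% in the scramble runs. EEF2K, the kinase that inhibits eEF2, had 64.9 and 65.4 CPM in shFTO cells and 64.8 and 63.5 CPM in scramble cells. Its ratio of 1.02 had an interval of 0.962 to 1.07.

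**Figure D3:**
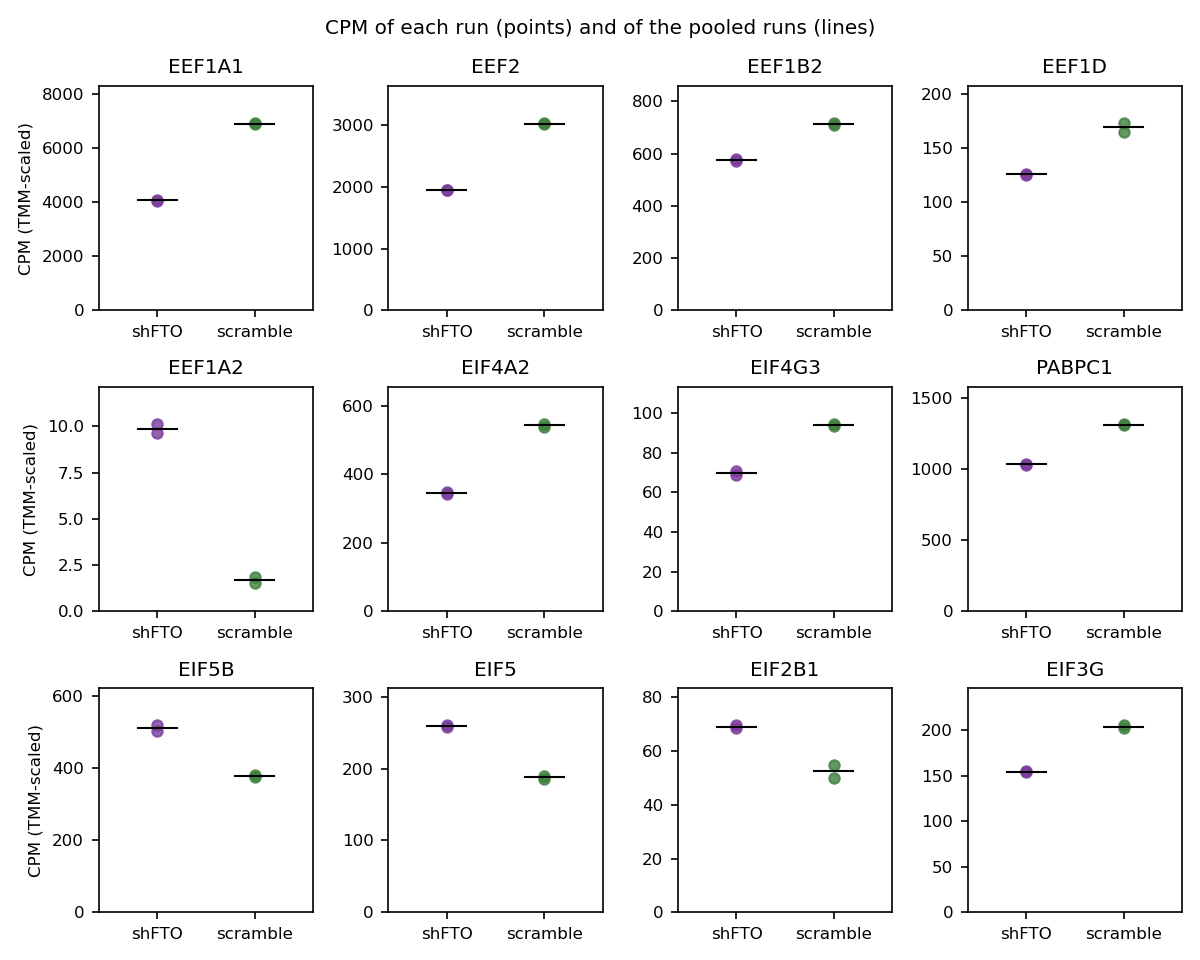
CPM of each run (points) and of the pooled runs (lines) for 12 translation factor genes, shFTO left and scramble right, each axis starting at 0. The runs of a group lie close together, with EEF1A1 near 4074 CPM in shFTO and 6905 CPM in scramble, and EEF1A2 near 9.85 CPM in shFTO and 1.70 CPM in scramble.

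Subunit transcripts of eIF3, the largest initiation factor, which bridges the small ribosomal subunit and eIF4G, mostly lay a little below the all-gene median. Of 13 subunits 11 lay below the all-gene median and 2, EIF3A and EIF3B, above it, a split that library scaling does not change. The median log2 ratio was -0.22, and 4 subunits (30.8%) were lower past the mark, not far from the 24.0% of all genes. EIF3G, a subunit that binds RNA, had 154.6 and 154.3 CPM in shFTO and 205 and 201.7 CPM in scramble, 1.32-fold lower (1.27 to 1.36). EIF3K had 82.4 and 82.1 CPM in shFTO and 105.3 and 106.4 CPM in scramble, 1.29-fold lower (1.23 to 1.35). The runs of both genes were well apart between the groups. EIF3E had 235.4 and 238.4 CPM in shFTO and 304.1 and 300.9 CPM in scramble, 1.28-fold lower (1.24 to 1.31). EIF3H had 142.5 and 146.4 CPM in shFTO and 180.5 and 185.3 CPM in scramble, 1.27-fold lower (1.22 to 1.31). Neither EIF3E nor EIF3H overlapped between the groups, as was the case for 81.6% of all genes.

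EIF3A and EIF3B, core subunits of the complex, were slightly higher. EIF3A had 853.4 and 861.2 CPM in shFTO and 788.2 and 789.8 CPM in scramble, 1.09-fold higher (1.07 to 1.10). EIF3B had 489.7 and 481.5 CPM in shFTO and 444.3 and 450.6 CPM in scramble, 1.09-fold higher (1.06 to 1.11). Both differences were small but larger than the gap between runs. The remaining subunits EIF3C, EIF3D, EIF3F, EIF3I, EIF3J, EIF3L and EIF3M had log2 ratios between -0.29 for EIF3F and -0.08 for EIF3L, each short of the mark. Per kilobase of transcript, EIF3E, EIF3G, EIF3B, EIF3A and EIF3J were the most abundant in scramble cells, from 139.9 to 211 CPM per kilobase. In shFTO cells the order of the first places changed: EIF3E stood at 165.3, EIF3B at 161.3, EIF3A at 153.9 and EIF3G at 140 CPM per kilobase, against 211, 148.6, 141.6 and 184.3 in scramble cells. EIF3C, at 8.77 CPM per kilobase in shFTO and 10.6 in scramble, and EIF3L, at 10.9 and 11.5, were far below their partners. EIF3C has a near-identical copy, EIF3CL, and 41.6% of the EIF3L exon bases are shared with another gene on the same strand, so their levels are uncertain.

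**Figure D4:**
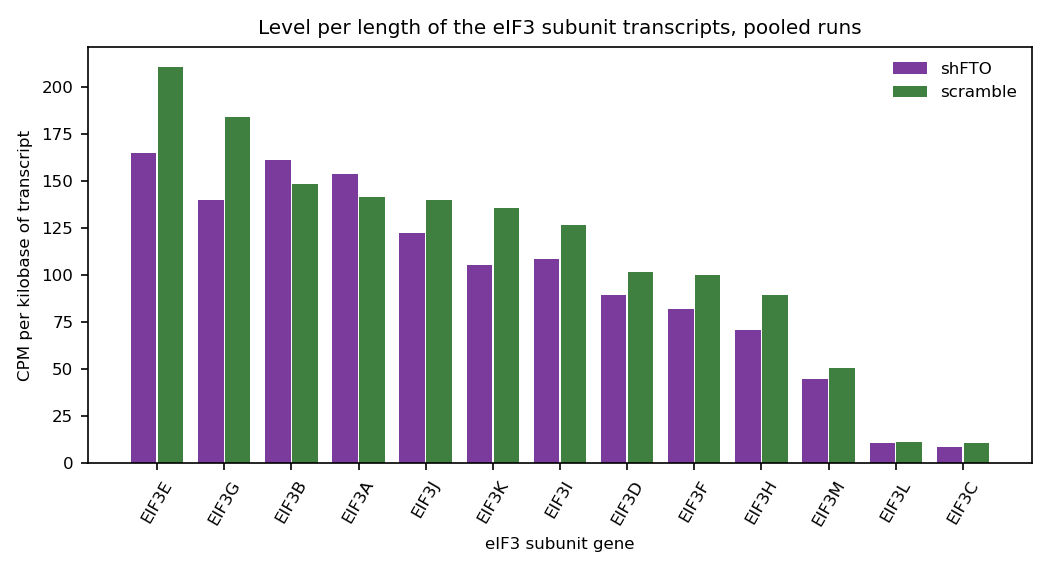
Pooled level of the 13 eIF3 subunit transcripts in CPM per kilobase of transcript, shFTO (left bar of each pair) and scramble (right bar), in the order of the scramble level. EIF3A and EIF3B are the only subunits with the taller bar in shFTO, although with plain library sizes EIF3L joins them, and EIF3L and EIF3C are read far less than the other subunits.

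With the elongation factors, the eIF3 genes formed the 19 genes of the set in which TOP mRNAs are common. Over the 18 with enough reads the median log2 ratio was -0.28, and 15 (83.3%) lay below the all-gene median. The other 31 members had a median of -0.08, with 17 (54.8%) below. The gap between these medians, -0.21, did not depend on library scaling and was -0.12 with length, GC and expression trends removed. Over the 4 tables as separate libraries, the quasi-likelihood test of edgeR, adjusted over all genes, passed 30 members as lower (61.2%) and 13 as higher (26.5%), against 33.4% and 33.2% of all genes. Of the 49 members 47 had at least 5 CPM, and a ratio as near to equality as 0.96, for EIF2S2, was passed. The part of read depth in the number of calls was not tested. With plain library sizes edgeR passed 15 as lower and 19 as higher, which turns the balance of the calls. That scaling also raises the all-gene median, to 0.177, and the direction of the calls over all genes under it is not given here. The calls compare these libraries, whose runs did not differ detectably, and say nothing about variation between cultures. The runs of the groups did not overlap for any of the 49 members, as for 81.6% of all genes.

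Cap-binding and helicase factors were split. EIF4A2 (ENSG00000156976), one of the helicases that unwind mRNA leaders, had 348.8 and 342.3 CPM in shFTO cells and 546.1 and 539.9 CPM in scramble cells. It was 1.57-fold lower (1.54 to 1.61), the lowest ratio of any initiation factor. EIF4G3, a scaffold paralogous to EIF4G1, had 68.7 and 70.8 CPM in shFTO and 94.2 and 93.2 CPM in scramble, 1.34-fold lower (1.28 to 1.41). EIF4G1, the main scaffold, had 693.3 and 697.8 CPM in shFTO and 638.4 and 631.6 CPM in scramble, 1.10-fold higher (1.08 to 1.11). Relative to EIF4G1, EIF4G3 was 1.47-fold lower in shFTO (1.398 to 1.55), a ratio that is free of library scaling. PABPC1 (ENSG00000070756), the poly(A)-binding protein that contacts eIF4G, had 1036 and 1033 CPM in shFTO and 1316 and 1311 CPM in scramble, 1.27-fold lower (1.253 to 1.286).

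The helicase cofactors EIF4B and EIF4H were 1.19-fold (1.17 to 1.21) and 1.15-fold (1.13 to 1.17) lower. EIF4E (ENSG00000151247), the cap-binding protein, had 73.1 and 73.6 CPM in shFTO and 79.5 and 83.2 CPM in scramble, 1.11-fold lower (1.06 to 1.17). EIF4E2, a cap-binding homologue known as a repressor, had 162 and 158.2 CPM in shFTO and 133.2 and 136.3 CPM in scramble, 1.19-fold higher (1.15 to 1.23). Relative to EIF4E, EIF4E2 was 1.32-fold higher in shFTO (1.239 to 1.402). EIF4E3 had 26 and 26 reads in shFTO and 20 and 12 in scramble, and the interval of its 1.43-fold ratio ran from 0.905 to 2.30. EIF4A1 had 52 and 74 reads in shFTO and 39 and 28 in scramble, a ratio of 1.66 (1.22 to 2.26). All of its exon bases are shared with ENSG00000264772 on the same strand in GENCODE 29, so these few reads do not give the level of this helicase. EIF4A3, the helicase of the exon junction complex, and EIF4G2, a scaffold without a cap-binding partner, had ratios of 1.07 (1.04 to 1.10) and 0.914 (0.90 to 0.929). The intervals of both inhibitors of EIF4E included equality. EIF4EBP1 had 63.6 and 65.0 CPM in shFTO and 68.8 and 66.9 CPM in scramble, a ratio of 0.948 (0.899 to 1.001). EIF4EBP2 had 164 and 169.8 CPM in shFTO and 162.5 and 160.6 CPM in scramble, a ratio of 1.03 (0.999 to 1.07). EIF4EBP2 relative to EIF4EBP1 was 1.09-fold higher (1.02 to 1.16).

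EIF5B (ENSG00000158417), which joins the ribosomal subunits, had 519.5 and 504.7 CPM in shFTO and 375.6 and 382.8 CPM in scramble, 1.35-fold higher (1.32 to 1.38). EIF5 (ENSG00000100664), which makes eIF2 hydrolyse its GTP at the start codon, had 259.9 and 257.3 CPM in shFTO and 189.3 and 185.8 CPM in scramble, 1.38-fold higher (1.34 to 1.42). The groups were well separated for both genes, while for 81.6% of all genes the runs did not overlap either. EIF1 (ENSG00000173812), which opposes EIF5 at poor start codons, was lower, with 198.9 and 206.6 CPM in shFTO and 253.2 and 253.3 CPM in scramble. At a ratio of 0.801 to scramble (0.778 to 0.824) EIF1 fell just short of the mark of 0.8, and EIF3H at 0.79 stood nearest past it. EIF1B, a close relative of EIF1, had 53.7 and 53.7 CPM in shFTO and 66.1 and 64.2 CPM in scramble. It was 1.21-fold lower (1.15 to 1.28), and its ratio to EIF1 hardly moved, at 1.03 (0.966 to 1.10). EIF1AX was 1.15-fold lower (1.11 to 1.19).

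Transcripts of eIF2, which carries the initiator tRNA, were nearly level. The log2 ratios of EIF2S1, EIF2S2 and EIF2S3, its alpha, beta and gamma subunits, were 0.06, -0.06 and -0.13. The subunits of eIF2B, which reloads eIF2 with GTP, parted. EIF2B1, the alpha subunit, had 69.5 and 68.7 CPM in shFTO and 54.9 and 49.98 CPM in scramble, 1.32-fold higher (1.245 to 1.395). EIF2B5, the catalytic epsilon subunit, had 66.3 and 67.2 CPM in shFTO and 56.6 and 52.4 CPM in scramble, 1.23-fold higher (1.16 to 1.298). EIF2B2, EIF2B3 and EIF2B4, the beta, gamma and delta subunits, lay on the other side of equality at log2 ratios of -0.15, -0.17 and -0.20. With plain library sizes, under which the all-gene median is 0.18, these 3 subunits lie close to 0. EIF2B1 shares 15.4% of its exon bases with DDX55 on the opposite strand, which had 972 and 962 reads in shFTO and 801 and 751 in scramble. EIF5B shares 14.7% with REV1, also on the opposite strand, which had 1024 and 1034 reads in shFTO and 706 and 866 in scramble. EIF4E2 shares 22.8% with an antisense gene of at most 4 reads in any run and 10.3% with TIGD1, and EEF1D, EIF2B2, EIF3G, EIF3L and EIF3M share between 10.2% and 25.5% with a gene on the opposite strand. As no source used here gives the strand setting of the counting, reads of such pairs cannot be told apart.

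The elongation factor eIF5A is known for hypusine, a modified lysine. EIF5A (ENSG00000132507) had 825.1 and 839.8 CPM in shFTO and 785.4 and 792.4 CPM in scramble, 1.06-fold higher (1.04 to 1.07). EIF5A2 had 11.6 and 12.5 CPM in shFTO and 9.95 and 10.15 CPM in scramble, 1.198-fold higher (1.05 to 1.37). The pair kept its balance within counting error, as EIF5A2 relative to EIF5A had a ratio of 1.14 (0.993 to 1.30). EIF6, which keeps the large subunit from joining too early, was 1.10-fold lower (1.06 to 1.14).

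Genes around the factors were taken from lists of enzymes, regulators and partners. Both hypusine enzymes differed, in opposite directions: DOHH, the hydroxylase, was 1.496-fold higher (1.38 to 1.63) and DHPS, which starts the modification, 1.37-fold lower (1.28 to 1.46). DPH2, of the pathway that makes diphthamide on eEF2, was 1.64-fold higher (1.52 to 1.77), and the EEF1A methyltransferase EEF1AKMT1 was 1.37-fold higher (1.197 to 1.58). EEFSEC, the elongation factor for selenocysteine, was 1.34-fold lower (1.22 to 1.48), TPT1, a growth-related TOP gene, 1.36-fold lower (1.35 to 1.38), and the EEF1A methyltransferase EEF1AKMT3 1.43-fold lower (1.18 to 1.74). In this list of 15 elongation proteins, 14 had enough reads, of which 5 were lower and 3 higher past the mark. Of 9 other initiation proteins with enough reads 4 were lower past the mark and none higher. Over all genes the shares past the mark were 24.0% lower and 22.8% higher. EIF2A, an alternative initiator tRNA carrier, was 1.55-fold lower (1.49 to 1.62) and PAIP2, an inhibitor of PABPC1, 1.51-fold lower (1.44 to 1.59). RACK1, a ribosome-bound scaffold, was 1.399-fold lower (1.38 to 1.42) and EIF2D 1.30-fold lower (1.23 to 1.37).

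Regulators did not move as a block. Of 14 genes of the mTORC1 and S6 kinase arm, 4 were lower and 2 higher past the mark (28.6% and 14.3%, against 24.0% and 22.8% of all genes), with a median log2 ratio of 0.06. LARP1, which binds TOP mRNAs, had 383.1 and 386.8 CPM in shFTO and 287.4 and 284.3 CPM in scramble, 1.35-fold higher (1.31 to 1.38). MKNK1, a kinase of EIF4E, was 1.28-fold higher (1.17 to 1.401), while its relative MKNK2 was 1.30-fold lower, at a ratio of 0.767 to scramble (0.735 to 0.80). PDCD4, which inhibits the EIF4A helicases, was 1.51-fold lower (1.42 to 1.598), DDIT4, an inhibitor upstream of mTORC1, 1.34-fold lower (1.27 to 1.41), and RPS6KB2 1.26-fold lower (1.19 to 1.33). Of 7 eIF2 kinases, phosphatase subunits and their target ATF4, the phosphatase subunits differed in opposite directions. The stress-induced PPP1R15A was 1.54-fold lower (1.43 to 1.65) and the constitutive PPP1R15B 1.42-fold higher (1.30 to 1.54), whereas ATF4 had a ratio of 1.01 (0.983 to 1.03). The release and recycling genes ETF1, GSPT1 and ABCE1 were all inside the mark, as were all 9 mitochondrial translation factors and 53.2% of all genes. The 5 textbook TOP genes outside the set and the ribosome, TPT1, RACK1, NAP1L1, HNRNPA1 and NPM1, all lay below the all-gene median, 4 of them lower past the mark. Their median log2 ratio was -0.45 as measured. It was -0.02 with length, GC and expression trends removed, when the all-gene median was 0.036. HNRNPA1, an RNA-binding protein, was 1.41-fold lower (1.397 to 1.422).

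Transcript length moved with the ratios. Across the 49 members, Spearman's rho of the log2 ratio with transcript length was 0.249, and it was 0.181 over 12242 genes of at least 1 CPM. These are descriptions across genes of the same libraries, and genes are not independent replicates. A smooth trend on length, GC content and mean expression was fitted to 11967 genes of at least 1 CPM and a log2 ratio under 2 in size. It explained 3.74% of the deviance over these genes. Members within these limits were part of the fit, as were TOP and ribosomal protein genes, so the trend can take up part of their own differences. After its removal 10 members were higher past the mark and 4 lower, against 6 and 10 as measured. The 4 lower ones were EIF4G3 (log2 ratio -0.52), EEF1A1 (-0.42), EIF4A2 (-0.41) and EEF2 (-0.36). With the trend removed the all-gene median was 0.036 and the members' median -0.045, and 31 of the 49 members lay below the all-gene median. The shares of all genes past the mark after removal are not given here. EIF5, EIF5B and EIF2B1 stood at 0.48, 0.49 and 0.50, and EEF1A2 at 2.54.

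**Figure D5:**
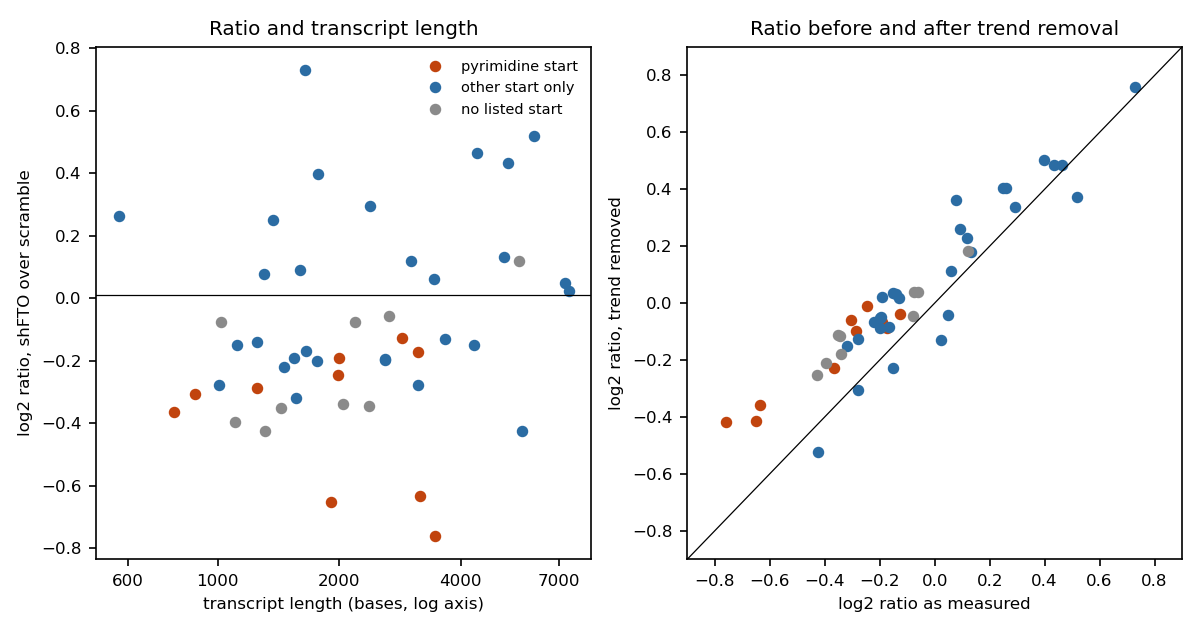
Left, log2 ratio of pooled CPM, shFTO over scramble, against transcript length in bases (log axis) for the 48 members other than EEF1A2. Right, the same ratio as measured and after removal of a trend on length, GC content and expression. On the right 42 of the 48 points lie above the diagonal of equal values, and EEF1A1, EIF4A2 and EEF2, the lowest as measured, remain among the lowest with EIF4G3.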

How the data were processed

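The authors deposited a table of unnormalized read counts for each run, listed by Ensembl identifier. TopHat2 2.1.1 and HTSeq 0.6.0 are named, with build hg19, per the submitters' processing notes; the annotation release and strand setting are not given in the sources used here. Groups come from the sample titles and the series' design text. Nothing in the labels says that runs came from separate cultures.

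Symbols, transcript lengths and GC content were matched by identifier, and all 50 members were found. Lengths are the median of a gene's GENCODE 29 basic transcripts, for coding genes of the protein-coding ones only. GC content is that of a gene's longest GENCODE 29 transcript. Such a length can differ from that of the main transcript, which bears on levels per kilobase and on the trends. GENCODE 29 is of another build and was used for names and properties. Starts shown are RefSeq's. Runs were compared by a chi-square test over genes with at least 20 reads and pooled. Genes passing filterByExpr were kept. Ratios are of pooled reads over TMM-scaled library sizes, with Clopper-Pearson intervals, or for paralog pairs exact conditional ones; these cover counting error only. edgeR 4.0.16 (R 4.3.3) gave quasi-likelihood calls at a Benjamini-Hochberg adjusted p under 0.05, with 2 residual degrees of freedom and a common dispersion of 9.77e-05, and was tested on simulated data. Trends were fitted with mgcv 1.9.3 to genes of at least 1 CPM and a log2 ratio under 2 in size. They were then removed from all genes of at least 1 CPM, among them EEF1A2, which lay outside the fit. DESeq2 1.42.0 was an alternative, as were other scalings, filters, each run left out and the replicate number as a block.

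The members and lists were chosen with earlier results of these data known. Run values are given for every eEF gene, every member of at least 5 CPM past a log2 ratio of 0.32 in size and the paralog pairs compared in the text, and for EIF3A, EIF3B, EIF2B5 and EEF2K, chosen after their values were seen; from other lists up to 4 genes each way past it, with ATF4, LARP1's runs and the 5 other TOP genes added after their values were seen.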

Additional observations from a re-analysis of the deposited data

How the results depend on the processing

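The scaling of the libraries decides on which side of equality a typical member lies. With plain library sizes the median log2 ratio of all genes with enough reads was 0.177 and that of the members 0.018, with -0.115 for the eEF and eIF3 genes, 0.091 for the other members, -0.129 for members with a pyrimidine start and 0.19 for those with other starts. Then 3 members were lower (EEF1A1, EEF2 and EIF4A2) and 9 higher past the 0.32 mark. With plain library sizes edgeR passed 15 as lower and 19 as higher. With upper quartile scaling 6 were lower and 7 higher past the mark, beside an all-gene median of 0.056. Under either scaling the members' median differed from the all-gene median by -0.159. The shares of all genes past the mark, or called in each direction, are not given for either scaling, so these counts are not set against genes in general. With trends on length, GC content and expression removed, 4 members were lower and 10 higher past the mark. The all-gene median was then 0.036, and 31 of the 49 members lay below it. The medians were -0.045 for all members, -0.092 for the eEF and eIF3 genes, 0.031 for the other members and -0.092 for members with a pyrimidine start. With at least 10 CPM in both groups 3 members were higher past the mark and the median for other starts was -0.122, or -0.066 without a filter, as fewer or more genes enter. Leaving out the 5 members of few or shared reads (EIF4A1, EIF4E3, EIF3C, EIF3L and EEF1G), chosen after the data were seen, moved the median of the other members to -0.128. The medians by start were also recomputed after the data were seen. Without 1 run, 9 to 12 members were lower and 5 to 7 higher past the mark. With the replicate block edgeR passed 30 members as lower and 13 as higher, as without it; same-numbered runs shared only a number (correlation of their deviations 0.0161). DESeq2's test passed 27 and 11. No named member past the mark changed sign in the scalings, filters, trend removal and left-out runs in which its ratio was computed; EEF1A2, EIF4A1 and EIF4E3 have none at 10 CPM.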
